A study of Homo sapiens with 10 samples.

Results

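The 41 genes described here encode proteins of the G2 phase and of mitosis, from B-type cyclins and mitotic kinases to kinetochore, spindle and cytokinesis proteins. They were taken by symbol from a list, each symbol matched exactly 1 of the 63140 gene identifiers counted, and all 41 were among the 16382 genes with enough counts to be tested. The cells, of the human line HS-SY-II established from a synovial sarcoma, received 100 nM of WA-68, a proteolysis-targeting degrader of the bromodomain protein BRD9, and were harvested after 12, 24, 48 or 96 h. The fifth group received the DMSO vehicle, and its harvest time is not given in the sources used here. A DMSO group for each time is lacking, so time under WA-68 and time in culture cannot be told apart. Each group held 2 biological replicates, which gave 10 poly(A) RNA libraries in all. Every p-value below measures the spread between these labelled replicates of a single cell line at a single dose.

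Entry into mitosis is driven by CDK1 bound to A-type and B-type cyclins and switched on by CDC25 phosphatases. Polo-like and Aurora kinases then build the spindle, kinetochores attach chromosomes to it, and a checkpoint holds the anaphase-promoting complex until attachment is complete. Transcripts of these genes accumulate in G2 and fall again in G1, through FOXM1, B-MYB and the MuvB core complex, so that their level in a bulk sample also depends on how many of its cells are in G2 or mitosis. In these bulk libraries a smaller share of such cells and less of each transcript per cell cannot be told apart.

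Gene promoters of this class commonly carry a CHR element, read by MuvB complexes, and CCAAT boxes, read by NF-Y. RefSeq promoter windows of GRCh38.p14, from 250 bases before to 50 after the annotated start, were matched for 34 of the 41 genes. The letters searched, on both strands, were TTTGAA or TTTAAA for the CHR and CCAAT for the CCAAT box, 2 motifs that can share 1 letter at most. Of the 34 windows, 27 (79.4%) held TTTGAA or TTTAAA, against 24.3% of 27305 promoters of the same length. CCAAT occurred at least once in 25 (73.5%, against 35.7%) and at least 2 times in 16 (47.1%, against 11.2%). Both kinds of letters stood in 21 windows (61.8%, against 9.49%). The E2F-type letters TTTGGCGC or TTTCCCGC stood in 2 of the 34 (5.88%, against 2.31%), while 15 of 34 windows of G1/S and DNA replication genes (44.1%) held them. Among 10803 windows of genes tested, 15.5% held TTTGAA or TTTAAA, 37.2% CCAAT at least once, 6.51% both kinds and 3.73% the E2F-type letters.

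Shown are the 150 bases before the RefSeq start of CCNB1, CCNA2, NEK2, KIF20A and CDC25B. The first 4 are the genes whose course changed most at 24 h in the tests below. CDC25B lay below both DMSO libraries in every treated library. Capitals mark TTTAAA or TTTGAA, and CCAAT or its reverse complement ATTGG. Each is written 5′ to 3′ on the gene's strand, at chr5:69167000-69167149 (CCNB1, plus strand), chr4:121823884-121824033 (CCNA2, minus), chr1:211675622-211675771 (NEK2, minus), chr5:138178962-138179111 (KIF20A, plus) and chr20:3786801-3786950 (CDC25B, plus).
CCNB1: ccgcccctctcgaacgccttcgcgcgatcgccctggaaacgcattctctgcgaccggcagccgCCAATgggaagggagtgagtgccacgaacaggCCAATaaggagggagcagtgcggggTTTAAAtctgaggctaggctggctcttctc
CCNA2: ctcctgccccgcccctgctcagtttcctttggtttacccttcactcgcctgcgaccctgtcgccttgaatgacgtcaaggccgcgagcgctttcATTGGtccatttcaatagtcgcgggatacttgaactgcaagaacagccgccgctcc
NEK2: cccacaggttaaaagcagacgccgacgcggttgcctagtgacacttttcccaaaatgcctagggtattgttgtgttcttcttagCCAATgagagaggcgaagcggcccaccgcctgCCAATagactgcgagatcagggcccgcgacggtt
KIF20A: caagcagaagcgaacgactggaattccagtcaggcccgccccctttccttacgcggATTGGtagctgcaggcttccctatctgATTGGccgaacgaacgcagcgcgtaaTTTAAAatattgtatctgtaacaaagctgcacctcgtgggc
CDC25B: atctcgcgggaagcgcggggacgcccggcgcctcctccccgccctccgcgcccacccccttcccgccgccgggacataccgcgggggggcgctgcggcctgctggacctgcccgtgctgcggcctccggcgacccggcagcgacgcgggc

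CCNB1 and KIF20A each held 1 TTTAAA and 2 CCAAT boxes within this stretch. NEK2 held 2 CCAAT boxes and CCNA2 held 1, and neither stretch held TTTGAA or TTTAAA. Other forms of the CHR were not searched, so a stretch without these letters may still hold one. CDC25B held neither kind. The full windows of CDC25C and CKAP2 also held neither kind, and in both genes the 24 h libraries lay above the other 8. A match describes letters and not a bound site.

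The libraries held 7349744 to 13200051 assigned counts. The replicate 2 libraries of the DMSO and 96 h groups lay apart from the rest, at -24.2 and -26 on the second principal component against -0.71 to 14.4 for the other 8. Within these groups replicate 2 differed from replicate 1 along transcript GC content, with a rank correlation over genes of 0.571 in DMSO and 0.289 at 96 h. The replicates of the other groups also differed along GC, at -0.292 for 48 h, -0.167 for 24 h and -0.059 for 12 h. For comparisons with DMSO or with 96 h, medians and some counts are also given without these libraries. The share of all genes called is not given for fits with a library left out. Counts of calls from such fits therefore do not by themselves set the members apart from other genes. All comparisons share an estimate of the spread, so these libraries also enter the calls of the steps between the other groups. Mitochondrial transcripts took 6.79% to 8.75% of counts in 9 libraries and 10.9% in replicate 2 of 96 h. Of the synovial sarcoma markers, SS18, SSX1, TLE1, PRAME and FZD10 were present at 51.2 to 400 CPM (TMM-scaled read counts relative to library size) over all libraries. BCL2, TWIST1 and SIM2 also had enough counts to be tested. Of the 9 markers tested, SIM2 alone had an adjusted p under 0.05 against DMSO, and it was lower at all 4 times. Its log2 fold change was -0.67 at 12 h (edgeR adjusted p = 0.000887) and -1.56 at 96 h (edgeR adjusted p = 4.9e-09). PTPRC and CD3E of leukocytes, PECAM1 of endothelium, and MYOD1 and MYOG of muscle were at 0 in these libraries. Of the 15 leukocyte, endothelial and muscle markers, the embryonic myosin gene MYH3 was the only one with enough counts to be tested, at 2.26 CPM, and ACTA1 was at 0.324 CPM. Of the markers that can be absent in a given sarcoma, SSX2 was at 0.011 CPM and KRT19 at 2.02.

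Over the course, the 41 genes together stood highest at 24 h and lowest at 48 h. Their summed level was 8363 and 8284 CPM in the DMSO libraries, then 8389 and 8176 after 12 h, 9559 and 8959 after 24 h, 6681 and 6674 after 48 h, and 7272 and 7556 after 96 h. Both 24 h libraries thus lay above the other 8, and both 48 h libraries below the other 8. The sum is weighted to the most abundant genes, MKI67, CENPF and TOP2A. The median over the 41 of the log2 level relative to the DMSO mean weights each gene alike. It was 0.208 and 0.127 in the 24 h libraries, -0.319 and -0.282 after 48 h, and -0.232 and -0.227 after 96 h. By gene, the highest group mean was at 24 h for 35 of the 41. It was in DMSO for CDC25B, MAD2L1, PRC1 and FOXM1, and at 12 h for CDK1 and BUB3. The lowest mean was at 48 h for 29 and at 96 h for 12, among them AURKA, CENPE, KIF11, HMMR and ECT2. Without replicate 2 of DMSO and of 96 h, a tally added after the data were seen, the highest mean was at 24 h for 36 genes and the lowest at 48 h for 33 and at 96 h for 8. DMSO was then highest for CDC25B, CDK1, MAD2L1 and NUSAP1, no longer for PRC1 and FOXM1, and 12 h for BUB3.

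**Figure D1:**
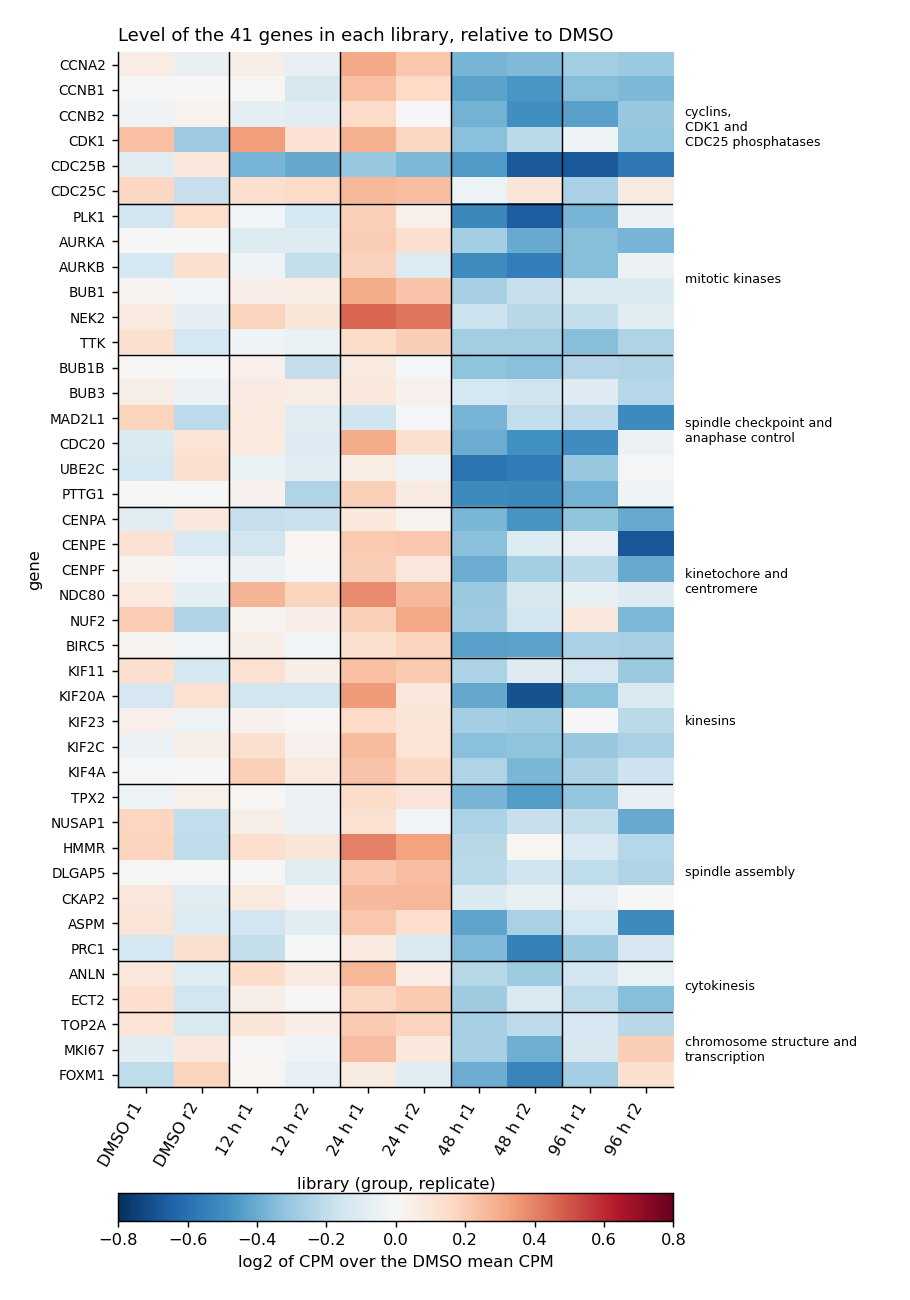
Level of each of the 41 genes (rows, grouped by role) in each of the 10 libraries (columns), as log2 of CPM over the mean of the DMSO libraries. The 24 h columns are the highest for 33 genes, and the 48 h or 96 h columns hold the lowest library of each gene.

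The same shape was counted over all genes tested. It was taken from the course of these 41 genes above, so the counts are a description and not a separate test. The members had been chosen with earlier results of these data known. Both 24 h libraries lay above the other 8 in 21 of the 41 genes and in 312 of the 16382 tested (1.9%). Both 48 h libraries lay below all 6 of DMSO, 12 h and 24 h in 31 of the 41 and in 8.65% of all genes tested. The 15 genes with both features were CCNA2, CCNB1, AURKA, BUB1, NEK2, TTK, CDC20, PTTG1, CENPF, BIRC5, KIF23, TPX2, DLGAP5, ASPM and TOP2A. The share of all genes with both features was not counted with all libraries. Without replicate 2 of DMSO and of 96 h, both 24 h libraries lay above the other 6 in 27 of the 41 (3.25% of all genes). Both 48 h libraries lay below those of DMSO, 12 h and 24 h in 40 (10.2%), and 26 had both features (0.879%).

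From 12 h to 24 h none of the 41 genes passed the test (edgeR quasi-likelihood, adjusted p under 0.05 over all genes tested), and none of all 16382 did (0% in either direction). DESeq2 and limma-voom also called 0 of the 41. The log2 fold changes were small and mostly positive, with a median of 0.16 against 0.00 over all genes, and 38 of 41 lay above 0 against 49.6% of all genes. At an unadjusted p under 0.05 there were 13 of the 41, against 3.6% of all genes. Both 24 h libraries exceeded both 12 h libraries in 29, against 18.3% of all genes.

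Among the largest differences of this step were those of KIF20A, a kinesin of cytokinesis, NEK2, a centrosome kinase, and DLGAP5 and AURKA, which act in spindle assembly, beside ASPM, a spindle pole protein. KIF20A had 122 and 122 CPM at 12 h against 170.0 and 143 at 24 h, a log2 fold change of 0.36 (SE 0.112, edgeR adjusted p = 0.999). NEK2 was at 53.3 and 50.3 CPM and then at 65.05 and 63.3, a log2 fold change of 0.31 (SE 0.0982). DLGAP5 went from 77.04 and 71.8 CPM to 89.2 and 90.9. The groups did not overlap in any of these genes, and no single value passes the correction. With only the 4 libraries of this comparison in the fit, 8 of the 41 passed, all higher at 24 h, where 0.238% of the 15571 genes of that fit were called higher and 0.263% lower. They were KIF20A, NEK2, AURKA, DLGAP5, ASPM, CENPE, CENPF and MKI67.

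From 24 h to 48 h, 26 of the 41 genes fell and none rose (edgeR, adjusted p under 0.05), where 0.562% of all genes tested were called lower and 0.195% higher. All 41 log2 fold changes lay below 0, from -0.76 to -0.20 with a median of -0.48, against a median of 0.00 and 50.8% below 0 over all genes. In all 41 both 48 h libraries lay below both 24 h libraries, against 21.4% of all genes, and 38 had an unadjusted p under 0.05 against 7.9%. In the tallies below, fell means passing the test. Members that did not pass also lay lower at 48 h. These 26 made up 28.3% of the 92 genes of the whole table called lower in this step. Without replicate 2 of DMSO and of 96 h together, the median of this step was -0.48. The count of calls rested on few libraries. It rose without replicate 2 of DMSO or of 96 h, which are not compared in this step. It was 0 without replicate 1 of 24 h, 4 without replicate 2 of 24 h, 1 without replicate 1 of 48 h and 0 without replicate 2 of 48 h, with 35 or 36 of the 41 at an unadjusted p under 0.05 and all 41 below 0 in each.

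**Figure D2:**
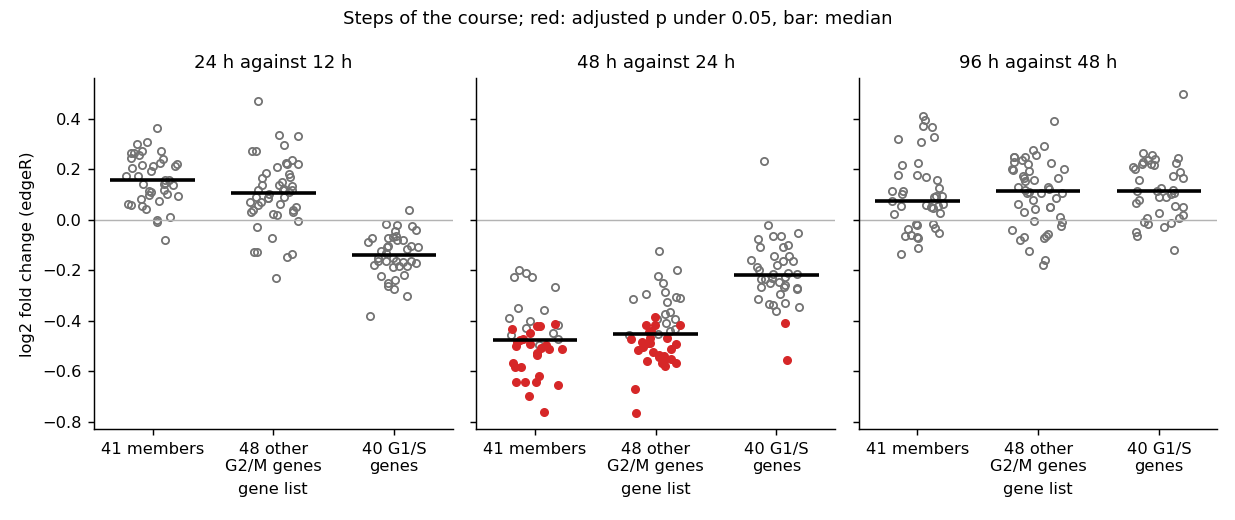
Log2 fold change of each gene (points, red where edgeR's adjusted p was under 0.05) in 3 steps of the course, for the 41 genes, 48 other G2/M genes and 40 G1/S genes, with the median of each list as a bar. The medians of the 41 genes are 0.16, -0.48 and 0.07, and red points among them appear only at 48 h against 24 h.

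Among the cyclins, CDK1 and the CDC25 phosphatases, 3 of 6 fell, all of them cyclins. CCNB1, cyclin B1, was at 120.1 and 120.1 CPM in DMSO, 121 and 110.0 after 12 h, 142 and 134 after 24 h, 89.3 and 87.1 after 48 h, and 94.95 and 93.6 after 96 h. Its 24 h libraries were the highest and its 48 h libraries the lowest of the 10, and it fell 1.56-fold from 24 h to 48 h (log2 fold change -0.64, SE 0.0906, edgeR adjusted p = 0.0022). CCNA2, cyclin A2, went through 95.8 and 88.2 CPM in DMSO, 95.04 and 87.8 after 12 h, 113 and 107 after 24 h, 71.2 and 72.04 after 48 h, and 75.9 and 74.8 after 96 h. It kept the same order of groups and fell 1.54-fold (log2 fold change -0.62, SE 0.0921, edgeR adjusted p = 0.00228). CCNB2, cyclin B2, went from 112 and 100.5 CPM at 24 h to 77.8 and 71.7 at 48 h, a 1.42-fold fall. CDK1, the kinase these cyclins bind, had a log2 fold change of -0.50 that did not pass (edgeR adjusted p = 0.0893). Its DMSO libraries were far apart, at 104 and 71.9 CPM. CDC25B had -0.23 (edgeR adjusted p = 0.516) and CDC25C -0.23 (edgeR adjusted p = 0.775).

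All 6 mitotic kinases fell. PLK1, the polo-like kinase of mitotic entry and spindle assembly, was at 93.6 and 114 CPM in DMSO, 103 and 94.3 after 12 h, 119 and 107 after 24 h, 72.8 and 65.99 after 48 h, and 80.3 and 100.5 after 96 h. The 48 h libraries lay below the other 8, and the fall from 24 h was 1.62-fold (log2 fold change -0.70, SE 0.115, edgeR adjusted p = 0.00573). NEK2, which separates the centrosomes, was at 49.6 and 44.6 CPM in DMSO, 53.3 and 50.3 after 12 h, 65.05 and 63.3 after 24 h, 41.7 and 40.3 after 48 h, and 41.2 and 44.3 after 96 h. Its 24 h libraries were the highest of the 10, and it fell 1.56-fold (log2 fold change -0.64, SE 0.101, edgeR adjusted p = 0.003). AURKA, the Aurora kinase of spindle poles, fell from 119 and 113 CPM to 85.7 and 78.3. AURKB of the chromosomal passenger complex, BUB1 and TTK, the last of which starts checkpoint signalling at kinetochores, fell by log2 fold changes of -0.57, -0.49 and -0.45.

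Of the 6 genes grouped under spindle checkpoint and anaphase control, the 3 of anaphase control passed the test as lower. CDC20, which activates the anaphase-promoting complex, was at 86.8 and 102 CPM in DMSO, 99.5 and 87.7 after 12 h, 116 and 103 after 24 h, 71.4 and 67.2 after 48 h, and 66.7 and 91.2 after 96 h. UBE2C, the ubiquitin-conjugating enzyme of that complex, was at 101 and 122 CPM in DMSO, 108 and 104 after 12 h, 116 and 109 after 24 h, 74.4 and 75.6 after 48 h, and 90.5 and 110.0 after 96 h. In both genes the 24 h and 48 h libraries were well apart, with falls of 1.57-fold for CDC20 (edgeR adjusted p = 0.00908) and 1.5-fold for UBE2C (edgeR adjusted p = 0.00828). PTTG1, the securin that the complex destroys, fell by a log2 fold change of -0.64. The checkpoint components BUB1B, BUB3 and MAD2L1 had -0.36, -0.21 and -0.20 and did not pass (edgeR adjusted p = 0.0911, 0.532 and 0.793). In each of them both 48 h libraries still lay below both 24 h libraries. The checkpoint kinases BUB1 and TTK, grouped above with the mitotic kinases, did pass.

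At the kinetochore and centromere 4 of 6 fell, namely BIRC5, CENPF, NDC80 and CENPA. BIRC5, the survivin subunit of the chromosomal passenger complex, was at 99.7 and 96.5 CPM in DMSO, 102 and 96.5 after 12 h, 107 and 111 after 24 h, 72.7 and 72.9 after 48 h, and 82.03 and 81.5 after 96 h. Its replicates lay close together and it fell 1.5-fold (log2 fold change -0.59, SE 0.0892, edgeR adjusted p = 0.00228). CENPF, a large outer kinetochore protein, was at 1062 and 1030 CPM in DMSO, 1012 and 1036 after 12 h, 1197 and 1115 after 24 h, 794 and 867 after 48 h, and 901 and 790.3 after 96 h, and fell 1.39-fold. NDC80, which binds microtubules, fell by a log2 fold change of -0.53, and its partner NUF2 had -0.47 without passing (edgeR adjusted p = 0.125). The kinetochore kinesin CENPE had -0.43 (edgeR adjusted p = 0.209).

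Of 5 kinesins, 4 fell. KIF20A was at 123 and 146 CPM in DMSO, 122 and 122 after 12 h, 170.0 and 143 after 24 h, 101 and 83.1 after 48 h, and 107 and 124 after 96 h. Its fall from 24 h, 1.70-fold, was the largest of the 41 (log2 fold change -0.76, SE 0.114, edgeR adjusted p = 0.00228), and its 48 h libraries were the lowest of the 10. KIF4A, a chromokinesin, was at 147 and 148 CPM in DMSO, 169 and 156 after 12 h, 173 and 166 after 24 h, 125 and 115 after 48 h, and 124 and 132 after 96 h, and fell 1.42-fold. KIF2C, a microtubule depolymerase, and KIF23, of the central spindle, fell by log2 fold changes of -0.51 and -0.41. KIF11, the motor that separates spindle poles, had -0.40 (edgeR adjusted p = 0.0578).

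Of 7 spindle assembly factors, 3 passed the test as lower, and all 7 had log2 fold changes below 0. TPX2, which activates AURKA on spindle microtubules, was at 306 and 324 CPM in DMSO, 318 and 305 after 12 h, 349 and 338 after 24 h, 244 and 231 after 48 h, and 255 and 301 after 96 h, and fell 1.45-fold (edgeR adjusted p = 0.00661). ASPM was at 448 and 387 CPM in DMSO, 375 and 392 after 12 h, 486 and 458 after 24 h, 312 and 349.7 after 48 h, and 378 and 293 after 96 h, and fell 1.43-fold. Both had 24 h libraries above the other 8. DLGAP5 fell 1.34-fold, to 65.98 and 68.7 CPM at 48 h. HMMR, CKAP2, PRC1 and NUSAP1 had log2 fold changes of -0.46, -0.35, -0.42 and -0.26 and did not pass. NUSAP1 shares 62.2% of its exon length with a gene model on the same strand, AC087721.2, and PRC1 shares 57.6% with AC068831.7, so reads of these pairs may have been split or left out by the counting and their values are uncertain. Smaller shares of exon length overlap a gene on the same strand in BUB1B (10.2%) and CENPA (6.96%). On the opposite strand FOXM1 shares 15.9% with ITFG2, PLK1 11.6% with AC008870.3 and CCNA2 9.08% with EXOSC9, and whether the counting used strand is not known here.

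Of the cytokinesis genes, ANLN, a scaffold of the contractile ring, fell, and ECT2, an activator of RhoA, did not pass. ANLN was at 239 and 210.4 CPM in DMSO, 248.9 and 236 after 12 h, 270.3 and 235 after 24 h, 192 and 185 after 48 h, and 203 and 217 after 96 h (48 h against 24 h 1.34-fold lower, edgeR adjusted p = 0.0365). ECT2 was at 108 and 111 CPM at 24 h and at 78.8 and 88.2 at 48 h (edgeR adjusted p = 0.0837).

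In the last group MKI67, the Ki-67 protein of the mitotic chromosome surface, and TOP2A, the topoisomerase that untangles sister chromatids, fell. MKI67 was the highest of the 41 per length, at 137 CPM per kb, followed by TOP2A at 124. MKI67 was at 1668 and 1876 CPM in DMSO, 1782 and 1740 after 12 h, 2100 and 1877 after 24 h, 1473 and 1353 after 48 h, and 1620 and 2031 after 96 h. It fell 1.41-fold from 24 h to 48 h (edgeR adjusted p = 0.0119), and its 96 h libraries were far apart. TOP2A was at 871 and 743 CPM in DMSO, 865 and 837 after 12 h, 933 and 914 after 24 h, 672 and 698 after 48 h, and 736 and 692 after 96 h, and fell 1.35-fold (edgeR adjusted p = 0.0135). FOXM1, the transcription factor of this gene class, had a log2 fold change of -0.45 (edgeR adjusted p = 0.102), with 249.9 and 223 CPM at 24 h and 180.5 and 165 at 48 h.

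**Figure D3:**
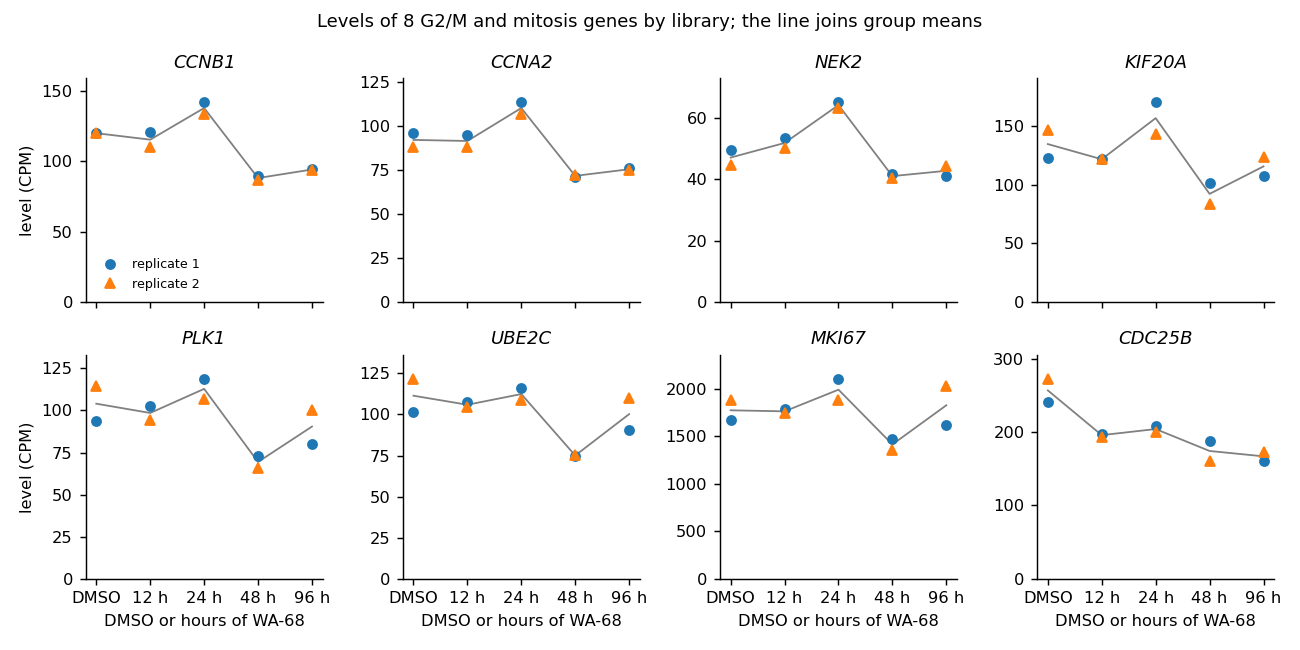
Level in CPM of 8 genes in each library by treatment time, replicates as circles and triangles, with a line through the group means and each axis starting at 0. CCNB1, CCNA2 and NEK2 have both 24 h libraries above the other 8, and CDC25B is lower in all 8 treated libraries than in both DMSO libraries.

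The change of course at 24 h was tested as the step from 24 h to 48 h minus the step from 12 h to 24 h. It was lower in 4 of the 41 genes, and these 4 were the only genes called among all 16382 (0.0244% lower and 0% higher). They were KIF20A (-1.13 on the log2 scale, SE 0.191), NEK2 (-0.95, SE 0.169), CCNB1 (-0.90, SE 0.153) and CCNA2 (-0.89, SE 0.155), each at an edgeR adjusted p of 0.0392. The difference lay below 0 in all 41 (50.5% of all genes), with a median of -0.67, and 36 had an unadjusted p under 0.05 against 3.36% of all genes. Both steps use the same 24 h libraries. None of the 41 was called without any 1 of the 12 h libraries, of the 24 h libraries or replicate 2 of 48 h, and 1 without replicate 1 of 48 h. Leaving out a DMSO or 96 h library gave more calls, and the share of all genes called in those fits is not given here.

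Other lists of the cell cycle were set beside these genes. Of 48 further G2/M and mitosis genes, 29 fell from 24 h to 48 h, with a median log2 fold change of -0.45 and all 48 below 0. PIMREG fell from 45.8 and 39.5 CPM to 25.4 and 24.6 (log2 fold change -0.77, edgeR adjusted p = 0.00228). ESPL1, the separase that cuts cohesin, fell from 171 and 172 CPM to 114 and 117. From 12 h to 24 h none of the 48 was called, 40 lay above 0 and the median was 0.11.

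Genes of G1/S and DNA replication followed another course in the early step. Of 40, none was called from 12 h to 24 h, 39 lay below 0 and the median was -0.14, where that of the 41 G2/M genes was 0.16. From 24 h to 48 h, 2 of the 40 fell, TK1 (log2 fold change -0.56, edgeR adjusted p = 0.0142) and TYMS (-0.41, edgeR adjusted p = 0.0293), both enzymes of thymidine nucleotide supply. The median over the 40 was -0.22 and 39 lay below 0. The 2 lists were not tested against each other.

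Among 13 condensin and cohesin subunits 3 fell at 48 h against 24 h, including NCAPD2 (log2 fold change -0.50, edgeR adjusted p = 0.00943) and NCAPG (-0.42, edgeR adjusted p = 0.0368). No gene was called among 15 subunits and activators of the anaphase-promoting complex (median -0.13, 1 at an unadjusted p under 0.05 in edgeR). None was called among 16 MuvB, DREAM and E2F regulators (median -0.12, 5 at an unadjusted p under 0.05), where MYBL2, which encodes B-MYB, had -0.40 (edgeR adjusted p = 0.15). The same held for 10 genes of WEE1 kinases and the G2 checkpoint (median -0.12, 4 at an unadjusted p under 0.05). Of 14 tested CDK inhibitors and p53 targets, the INK4-family inhibitor gene CDKN2C alone was called, and it fell (-0.48, edgeR adjusted p = 0.0277). Split by promoter letters, the 21 genes with both kinds had a median log2 fold change of -0.48 (14 called), the other 13 with a window -0.47 (7 called) and the 7 without a window -0.50 (5 called).

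Against DMSO, the early times held few calls. The comparisons with DMSO share its 2 libraries. At 12 h CDC25B alone was called, lower, where 1.92% of all genes were lower and 1.23% higher. CDC25B, a phosphatase that activates CDK1, was at 241 and 272 CPM in DMSO, 198 and 194 after 12 h, 208 and 201 after 24 h, 187 and 161 after 48 h, and 161 and 173 after 96 h. All 8 treated libraries lay below both DMSO libraries. Its log2 fold change was -0.39 at 12 h (SE 0.0949, edgeR adjusted p = 0.0226), -0.33 at 24 h without passing (SE 0.0948, edgeR adjusted p = 0.0529), -0.56 at 48 h (SE 0.0955, edgeR adjusted p = 0.0006) and -0.62 at 96 h (SE 0.0956, edgeR adjusted p = 8.98e-05). The 12 h call was lost when replicate 2 of DMSO or either 12 h library was left out, while the 48 h and 96 h calls held without each library in turn. Without replicate 2 of DMSO the values of CDC25B were -0.30, -0.24, -0.47 and -0.54 at the 4 times. Without replicate 1 of DMSO, 2 of the 41 were called at 12 h. With all libraries 2 of the 41 had an unadjusted p under 0.05, against 15.5% of all genes. The median of the 41 was -0.02, and -0.04 without replicate 2 of DMSO.

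At 24 h NEK2 alone was called, higher (log2 fold change 0.44, SE 0.0977, edgeR adjusted p = 0.0106), where 1.34% of all genes were higher and 2.25% lower. The median of the 41 was 0.17, 37 lay above 0 against 49.9% of all genes, and 12 had an unadjusted p under 0.05 against 16.5%. The median was 0.13 without replicate 2 of DMSO. None was called in either direction without replicate 2 of DMSO, where NEK2 had 0.37, or without either 24 h library. Leaving out either 96 h library or replicate 1 of DMSO gave calls in both directions. The share of all genes called in those fits is not given here.

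At 48 h, 22 of the 41 were lower than in DMSO, where 5.38% of all genes were lower and 4.01% higher. The median log2 fold change was -0.33, 40 lay below 0 against 51.2% of all genes, and 31 had an unadjusted p under 0.05 against 22.8%. The 22 included 4 of the 6 cyclin, CDK1 and CDC25 genes, 3 of 6 kinases, 4 of 6 checkpoint and anaphase genes and no cytokinesis gene. The lowest values were those of PLK1 (-0.58, SE 0.115, edgeR adjusted p = 0.00214), UBE2C (-0.57, SE 0.106, edgeR adjusted p = 0.00137), CDC25B and KIF20A (-0.54, SE 0.113, edgeR adjusted p = 0.00349). The order rested on replicate 2 of DMSO. Without it PLK1 and UBE2C were at -0.43 and KIF20A at -0.42, CDC25B at -0.47, and CDK1 and PTTG1 were lowest at -0.52 and -0.51. NEK2, the gene above DMSO at 24 h, was at -0.20 (edgeR adjusted p = 0.239). The count was 21 and the median -0.34 without replicate 2 of DMSO. It was 8 without replicate 1 of 48 h and 2, CDC25B and UBE2C, without replicate 2 of 48 h.

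At 96 h, 9 of the 41 were lower than in DMSO, where 6.86% of all genes were lower and 6.14% higher. These were CDC25B, CCNB1, CCNB2, CCNA2, AURKA, CENPA, CENPF, KIF2C and ASPM, and the median of the 41 was -0.21. Of the 41, 40 lay below 0 against 51.2% of all genes, and 20 had an unadjusted p under 0.05 against 26.3%. CCNB2 was at 98.8 and 103 CPM in DMSO, 95.4 and 95.1 after 12 h, 112 and 100.5 after 24 h, 77.8 and 71.7 after 48 h, and 74.8 and 81.7 after 96 h, a log2 fold change of -0.37 at 96 h (edgeR adjusted p = 0.0096). AURKA was at 103 and 104 CPM in DMSO and at 81.8 and 79.99 at 96 h (log2 fold change -0.36, edgeR adjusted p = 0.00893), with the groups well apart. The median was -0.25 without replicate 2 of DMSO, -0.23 without replicate 2 of 96 h and -0.24 without both. The number of calls moved with the library left out, and the share of all genes called in those fits is not given here.

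The G1/S and DNA replication genes held calls against DMSO as well. Of the 40, 22 were called lower at 48 h (median -0.38) and 14 at 96 h (median -0.21), and of the 48 other G2/M genes 15 (median -0.28) and 6 (median -0.18).

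From 48 h to 96 h none of the 41 was called in edgeR, where 0.0183% of all genes were called in each direction, and 8 had an unadjusted p under 0.05 against 9.2% of all genes. DESeq2 called 1, MKI67, and limma-voom 0. The median log2 fold change was 0.07, and 29 lay above 0 against 50.4% of all genes. The highest values were those of UBE2C (0.41, edgeR adjusted p = 0.231), FOXM1 (0.40, edgeR adjusted p = 0.331), PLK1 (0.37, edgeR adjusted p = 0.339) and MKI67 (0.37, edgeR adjusted p = 0.228). FOXM1 was at 196.7 and 259.7 CPM at 96 h and UBE2C at 90.5 and 110.0, so replicate 2 was the higher in both, as in PLK1 and MKI67. Without replicate 2 of 96 h these 4 were at 0.27, 0.19, 0.21 and 0.20. Without replicate 1 of 96 h, 4 of the 41 were called, and without replicate 2 of DMSO 1. The median was 0.10 without replicate 2 of 96 h.

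Transcript GC content was set beside the changes because of the libraries that lay apart. The median GC of the 41 was 42.6% (35.3% to 59.3%), against 48.4% over the genes tested with a value. Across the 41 genes, which share their libraries, the rank correlation of GC with the log2 fold change was 0.544 for 96 h against 48 h and 0.0895 without replicate 2 of 96 h. For 48 h against DMSO it was -0.756, and -0.121 without replicate 2 of DMSO. Leaving out that library turned its sign at 12 h (-0.409 to 0.425) and at 24 h (-0.492 to 0.35) against DMSO. For 96 h against DMSO it was -0.069, against 0.47 with replicate 2 of DMSO left out and -0.724 with that of 96 h left out. For 24 h against 12 h and 48 h against 24 h, which use neither library, it was -0.147 and -0.402. With a GC term for each library, 35 of the 41 were lower at 48 h against 24 h, and the median log2 fold change there was -0.48. The share of all genes called in that fit is not given here. The part of GC in the differences between single genes was not tested further.

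**Figure D4:**
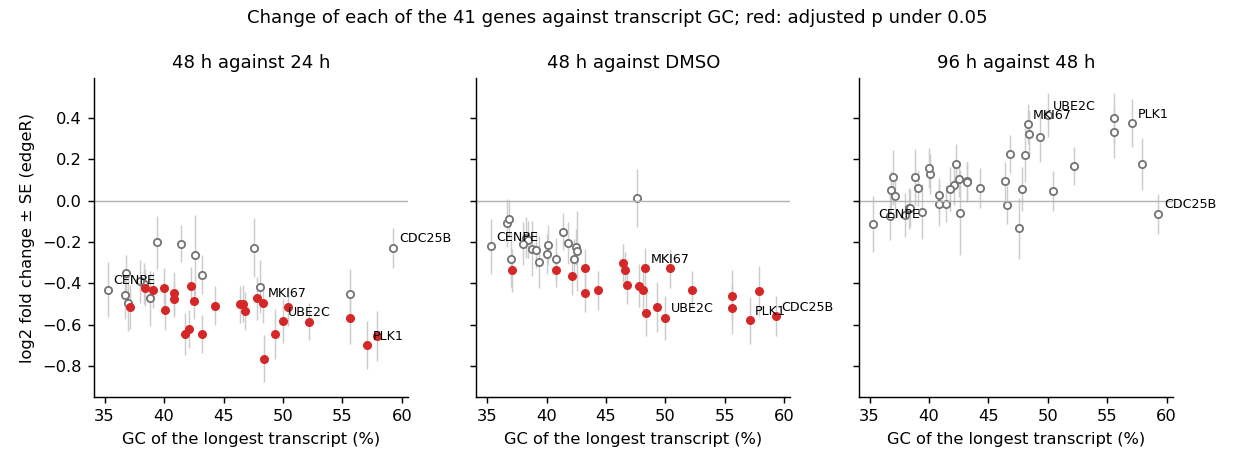
Log2 fold change (± SE) of each of the 41 genes against the GC content of its longest transcript, in 3 comparisons, red where edgeR's adjusted p was under 0.05. The slope is downward for 48 h against DMSO (rank correlation -0.756) and upward for 96 h against 48 h (0.544), with all 41 points below 0 for 48 h against 24 h.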

How the data were processed

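Stranded poly(A) libraries were read from both ends on a NovaSeq X, per the labels. Tools listed in the submitters' processing notes are bcl2fastq, FastQC, Trim Galore, cutadapt, STAR and featureCounts, with GRCh38 as the build. The sources used here do not give versions, annotation release or strand setting. The authors deposited raw counts per gene, and all per-sample columns were used.

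Genes kept by filterByExpr were scaled by TMM and fitted in edgeR 4.0.16 (R 4.3.3) with 1 mean per group over all 10 libraries, by a quasi-likelihood F test. The Benjamini-Hochberg adjustment ran over 16382 genes, and a gene was called at an adjusted p under 0.05. Residual degrees of freedom were 5 and prior ones 18.5, and the common biological coefficient of variation was 7.17%. SE is the log2 fold change over the square root of F. The fit was checked on simulated counts. Alternatives used limma 3.58.1 and DESeq2 1.42.0, other scalings, filters and thresholds, a GC offset, and each library left out.

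The members and lists were chosen with earlier results of these data known. Named genes are up to 2 per role with the smallest unadjusted p for 48 h against 24 h. By the same rule, up to 4 each were named for 24 h against 12 h and for 48 h and 96 h against DMSO. Other members are given by their group or after their values were seen. Exon overlaps and GC come from GENCODE, not from the release used for counting. Replicate numbers did not pair the libraries.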

Additional observations from a re-analysis of the deposited data

Results flagged for a closer look

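In 4 genes the step from 24 h to 48 h differed from the step from 12 h to 24 h by a test of the difference itself (edgeR adjusted p = 0.0392 in each). On the log2 scale the later step minus the earlier was -1.13 in KIF20A, -0.95 in NEK2, -0.90 in CCNB1 and -0.89 in CCNA2. None of the 4 calls held without each library in turn. Single genes could not be searched for an outlying library within a group, since each group held 2 libraries.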

How the results depend on the processing

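The fall from 24 h to 48 h lay below 0 in all 41 genes under all alternatives run, with a median log2 fold change of -0.52 to -0.44, and 17 were called at an adjusted p under 0.01. Leaving out each library gave 0 to 34 calls for it. The same gave 0 to 0 for 24 h against 12 h, 0 to 4 for 96 h against 48 h, 0 to 17 for the change of step, and 0 to 2, 0 to 9, 2 to 24 and 5 to 16 for 12, 24, 48 and 96 h against DMSO. The cause of the changes below was not tested. The share of all genes called can move with the setting, so these counts alone do not set the members apart from other genes. With only the groups compared, 0.502% of all genes were lower and 0.0126% higher for the change of step. At 48 h against DMSO 2.99% were lower and 3.18% higher in such a fit, and at 96 h 3.64% and 4.35%. For 24 h against 12 h, 8 were called with only the groups compared and 1 without replicate 2 of DMSO and of 96 h together. For 96 h against 48 h, 3 were called with no filter, 1 with DESeq2 and 2 with a GC offset. At 12 h against DMSO 0 were called by library size only and 0 at an adjusted p under 0.01. At 24 h against DMSO, 4 were called by library size only, 2 with no filter, 2 at 5 CPM in 2 libraries, 2 with DESeq2, 2 with limma-voom, 6 with a GC offset alone or with the replicate block (1 of them lower with no filter, DESeq2, limma-voom and the GC offset), 4 without both replicates 2, and 0 at 0.01. At 48 h against DMSO, 35 were called with a GC offset alone or with the block, 12 with only the groups compared and 10 at 0.01. At 96 h against DMSO, 4 were called by library size only, 5 with DESeq2, 15 with a GC offset alone or with the block, 14 without both replicates 2, 1 with only the groups compared, 6 with upper-quartile factors and 3 at 0.01. For the change of step, 0 were called with upper-quartile factors, 0 by library size only, 16 with no filter, 11 with DESeq2, 30 with a GC offset and 28 with the block added, 31 without both replicates 2, 31 with only the groups compared and 0 at 0.01. A term for replicate number (replicate block) gave 0, 25, 0 and 3 calls for the 3 steps and the change of step, and 1, 1, 21 and 8 against DMSO. The deviations of same-numbered libraries correlated at -0.123 to 0.186, with the highest value between DMSO and 96 h. With 2 libraries in each group these values cannot settle whether same-numbered libraries shared a culture or batch. Among the 20 named genes, in 24 h against 12 h, 48 h against 24 h, 48 h and 96 h against DMSO and the change of step, directions changed only in uncalled values, for ANLN at 24 h against 12 h without replicate 1 of 24 h (-0.0481, with 0.156 the highest when another library is left out), and for MKI67 at 96 h against DMSO when both replicates 2 (-0.0382), the first DMSO library (-0.0434) or the second 96 h library (-0.13) were left out, with 0.207 the highest. With 2 libraries in a group, leaving out 1 assumes that the lone library varies like the others.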
